A study of Homo sapiens with 9 samples.

Results

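Liver-enriched transcription factors are a small set of DNA-binding proteins that together keep a cell in the hepatocyte state. The 8 genes described here, chosen by symbol, are HNF4A, FOXA1, FOXA2, FOXA3, CEBPA, ONECUT2, PROX1 and GATA4, out of 62703 gene identifiers counted in each library. Each symbol matched 1 identifier, and all 8 passed the filter on low counts, with between 706 and 18747 counts in a library. The cells were HepG2, a human liver tumour line. They were either untreated (control, with no time given) or treated for 72 h with eliglustat at 20 or 30 µM, and each of these groups had 3 RNA sequencing libraries. Eliglustat inhibits glucosylceramide synthase, the first enzyme of glucosylceramide-based glycosphingolipid synthesis. All groups are the same line with no genetic change given in the labels, and the line is a single tumour-derived model that keeps only part of the hepatocyte program. A lower dose named in the series text was not analysed here.

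HNF4A is a nuclear receptor that binds DNA as a homodimer and drives many genes for lipoproteins, clotting factors and drug metabolism. The FOXA proteins are forkhead factors that can bind compacted chromatin and open liver enhancers, and GATA4, a zinc-finger factor, acts with them in early liver development. CEBPA is a basic leucine zipper factor that favours metabolic genes and restrains proliferation, ONECUT2 is a cut-homeodomain factor of liver and bile duct development, and PROX1 is a homeodomain factor that hepatoblasts need to migrate and that also represses HNF4A-driven genes. These factors bind one another's promoters and enhancers, so each gene is both a regulator and a target within the set.

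The promoters of HNF4A, FOXA1 and CEBPA are shown because FOXA1 and CEBPA had the largest falls at the higher dose and because HNF4A has a pair of promoters that a count per gene cannot separate. The sequences are from RefSeq (GRCh38.p14), and the promoter table used here was matched for 5 of the 8 genes, all but FOXA2, PROX1 and GATA4. The 250 bases before each start were searched on both strands for 7 short cores. Forkhead factors were searched as TGTTTNC, ONECUT factors as ATCAAT and GATA factors as AGATAA. The nuclear receptor hexamer was searched as AGGTCA, the C/EBP core as TTGCNNAA, the CCAAT box by its own letters and the TATA box as TATAAA. Each sequence is given 5′ to 3′ on the gene's strand, with the matches in capitals, and the FOXA1 and CEBPA windows were shortened where a GENCODE 29 exon begins (the CEBPA one at the end of its last match). The upstream HNF4A promoter is known as P2, and the downstream one, used in adult liver, as P1.
HNF4A P2, chr20:44355449-44355698, plus strand: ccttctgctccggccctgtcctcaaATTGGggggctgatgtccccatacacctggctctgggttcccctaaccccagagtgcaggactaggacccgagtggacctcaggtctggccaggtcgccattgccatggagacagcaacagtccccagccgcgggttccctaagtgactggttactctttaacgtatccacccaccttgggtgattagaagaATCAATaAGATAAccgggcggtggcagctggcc
HNF4A P1, chr20:44400989-44401238, plus strand: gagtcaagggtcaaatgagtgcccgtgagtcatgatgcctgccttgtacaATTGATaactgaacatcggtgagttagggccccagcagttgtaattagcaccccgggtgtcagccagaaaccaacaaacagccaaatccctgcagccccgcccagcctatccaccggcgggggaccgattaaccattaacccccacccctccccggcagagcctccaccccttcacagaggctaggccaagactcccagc
FOXA1, chr14:37595349-37595499, minus strand: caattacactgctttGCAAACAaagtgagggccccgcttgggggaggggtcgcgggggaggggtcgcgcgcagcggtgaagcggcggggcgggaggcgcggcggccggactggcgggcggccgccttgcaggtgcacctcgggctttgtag
CEBPA, chr19:33302559-33302784, minus strand: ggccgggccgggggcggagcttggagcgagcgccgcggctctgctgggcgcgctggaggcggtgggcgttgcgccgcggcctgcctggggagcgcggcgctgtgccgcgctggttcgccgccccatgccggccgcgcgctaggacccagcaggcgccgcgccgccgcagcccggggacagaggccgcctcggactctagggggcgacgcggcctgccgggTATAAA

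The P2 window lies just before the first annotated exon of HNF4A, and the P1 window lies in an intron of the transcripts that start at P2. The FOXA1 sequence lies inside the FOXA1 gene of GENCODE 29, which starts further upstream, but outside its exons. P2 held an ONECUT core 33 bases before the start, a GATA core at 26 bases and a CCAAT box at 225 bases. P1 held an ONECUT core at 200 bases. Among 35116 promoter windows of the same length, 5.58% held the ONECUT core, 9.17% the GATA core and 32.0% the CCAAT box. The FOXA1 window held a forkhead core (15.5% of windows). The CEBPA and FOXA3 windows each held a TATA box 30 bases before the RefSeq start (10.7% of windows). In GENCODE 29 the CEBPA match lies within the annotated CEBPA gene, at its first bases. The FOXA3 window lies inside the annotated FOXA3 gene, with 182 of its 250 bases in exons. The FOXA3 window also held an AGGTCA hexamer (12.1%), and the ONECUT2 window held none of the 7 cores. A match is a string of letters in these windows, and binding was not measured.

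The libraries held 21103757 to 26782810 counts in genes. Values are given as CPM, the usual count scaled to a common library size, here by TMM, and changes are log2 ± SE from edgeR's quasi-likelihood test over all 9 libraries, with Benjamini-Hochberg adjustment over the 17623 genes tested and a threshold of 0.05. Nothing in the labels says whether the 3 libraries of a group are separate cultures, and the p-values then cover library-to-library spread that may be only technical. The hepatocyte markers ALB, APOA1, APOB, TTR, SERPINA1, FGB, TF and AFP were all expressed, at a summed 30950 to 31920 CPM in controls, 34320 to 34800 at 20 µM and 38970 to 39350 at 30 µM. APOB alone went from 19950 CPM in controls to 27770 CPM at 30 µM, where 3 of the 8 markers rose and 3, among them ALB and AFP, fell (median log2 -0.03). Of 5 fibroblast markers 1 passed the filter, DCN was at 0 in every library and the sum was 1.01 to 1.40 CPM in controls, 1.06 to 1.503 at 20 µM and 3.15 to 3.51 at 30 µM. Of 4 leukocyte markers 2 passed, PTPRC was at 0, and LYZ alone gave nearly all of the sum (450.3 to 496 CPM in controls, 438 to 474 at 20 µM and 637 to 667 at 30 µM). The 4 endothelial markers, 3 of which passed, summed to 4.49 to 5.54, 4.82 to 6.34 and 3.96 to 4.83 CPM. Within this sum, at 30 µM against control, VWF rose (log2 2.57, adjusted p = 3.99e-07). PECAM1 (-1.21, adjusted p = 0.000633) and CDH5 (-0.55, adjusted p = 0.0298) fell there, all by edgeR. The part of other cells in the results was not tested. Control 1, 20 µM library 3 and 30 µM library 3 deviated from their groups together (r of deviations 0.331 to 0.352, against -0.256 to 0.152 for other pairs). A result that changed without them is given with its value.

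At the lower dose the factors split: HNF4A, FOXA2 and ONECUT2 rose, FOXA1 fell, and FOXA3, CEBPA, PROX1 and GATA4 did not pass the test. Thus 4 of 8 were called at 20 µM against control, where 34.2% of all genes tested were called (17.2% higher and 16.9% lower). All of these changes were small, the largest being 1.29-fold for ONECUT2. At 30 µM all 8 were called against control, 3 higher and 5 lower, in a comparison where 60.8% of all genes were called (29.5% higher and 31.3% lower). Among the 12449 protein-coding genes tested the shares called were 44.2% and 71.7%. At 30 µM against 20 µM, 7 of 8 were called, 2 higher and 5 lower, against 57.0% of all genes (28.0% higher and 28.9% lower). The libraries of 5 of 8 factors did not overlap between 20 µM and control, of 8 of 8 between 30 µM and control, and of 7 of 8 between the doses, where 44.5%, 65.0% and 61.1% of all genes had no overlap. None of the 8 rose by 1 log2 unit or more, as 1.39%, 7.84% and 5.19% of all genes did in the 3 comparisons. In bulk RNA, fewer cells that express a gene and less of its RNA per cell cannot be told apart.

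**Figure D1:**
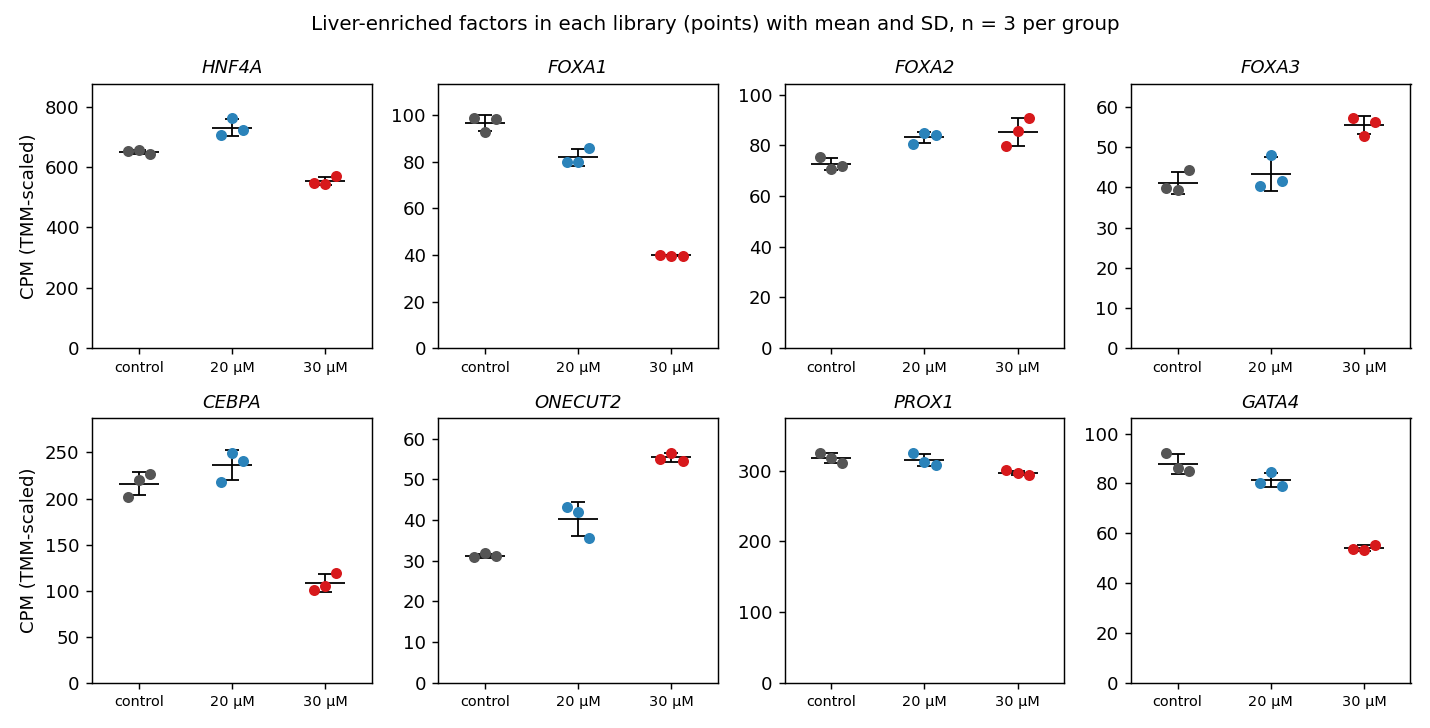
CPM (TMM-scaled, y axis from 0) of each of the 8 factors in every library (points), with the group mean and SD (n = 3) as horizontal and vertical lines. FOXA1, CEBPA and GATA4 have their lowest points at 30 µM, ONECUT2 has its highest there, and HNF4A is highest at 20 µM and lowest at 30 µM.

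HNF4A was the most abundant of the factors, and its direction differed between the doses. It measured 652, 657 and 644 CPM in the controls, 708, 762 and 722 CPM at 20 µM, and 549, 545 and 571 CPM at 30 µM. No library of any group overlapped another group's range. It rose 1.12-fold at 20 µM (log2 0.17 ± 0.0323, adjusted p = 9.53e-05) and fell 1.17-fold at 30 µM (log2 -0.23 ± 0.0324, adjusted p = 1.85e-07). Between the doses it fell 1.32-fold (log2 -0.40 ± 0.0324, adjusted p = 1.71e-12). These are sums over P1 and P2 transcripts.

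Positions are those of GENCODE 29 (GRCh38), while the identifiers are those of the deposited counts, matched without their version. HNF4A (ENSG00000101076.20) spans chr20:44355700-44434596 on the plus strand, and FOXA2 (ENSG00000125798.15) lies on the same chromosome at chr20:22581005-22585455 on the minus strand. FOXA1 (ENSG00000129514.8) is at chr14:37589984-37596059, minus strand. FOXA3 (ENSG00000170608.3, chr19:45863989-45873797, plus) and CEBPA (ENSG00000245848.3, chr19:33299934-33302564, minus) share a chromosome. ONECUT2 (ENSG00000119547.6) is at chr18:57435685-57491297, PROX1 (ENSG00000117707.16) at chr1:213983181-214041502 and GATA4 (ENSG00000136574.19) at chr8:11676959-11760002, all on the plus strand. Counts cover whole genes. HNF4A-AS1 lies within HNF4A, PROX1-AS1 overlaps the start of PROX1 and TTC6 that of FOXA1. TTC6 measured 19.6, 18.0 and 19.6 CPM in controls, 21.3, 19.5 and 19.5 CPM at 20 µM, and 12.2, 12.3 and 11.3 CPM at 30 µM. Whether reads of TTC6 enter the FOXA1 count was not tested.

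FOXA1 had the largest fall of the set against control and was the only 1 of the 8 to fall by at least 1 log2 unit against control, as 8.18% of all genes did at 30 µM (0.363% at 20 µM). Between the doses FOXA1 and CEBPA fell by that much, as 6.43% of all genes did. Its level was 98.7, 92.8 and 98.2 CPM in controls, 79.7, 79.8 and 86.0 CPM at 20 µM, and 40.1, 39.6 and 39.5 CPM at 30 µM. The 3 groups were fully separated, and the 30 µM libraries lay within 1 CPM of each other. FOXA1 fell 1.18-fold at 20 µM (log2 -0.24 ± 0.0440, adjusted p = 4.57e-05) and 2.43-fold at 30 µM (log2 -1.28 ± 0.0468, adjusted p = 6.06e-22). Between the doses the fall was 2.06-fold (log2 -1.04 ± 0.0472, adjusted p = 3.85e-19).

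Its relatives went the other way. FOXA2 measured 75.5, 70.8 and 71.9 CPM in controls, 80.5, 84.8 and 84.1 CPM at 20 µM, and 79.8, 85.8 and 90.8 CPM at 30 µM. Both treated groups lay above every control and overlapped each other. FOXA2 rose 1.14-fold at 20 µM (log2 0.19 ± 0.0466, adjusted p = 0.00129) and 1.18-fold at 30 µM (log2 0.23 ± 0.0467, adjusted p = 5.78e-05), with a difference between the doses of 0.04 ± 0.0464 (adjusted p = 0.486). Scaled by library size alone, which moved the median of all genes at 30 µM against control by -0.21, its change at 30 µM was 0.02 (adjusted p = 0.680) and its change between the doses -0.15 (adjusted p = 0.00422). Under that scaling 3530 genes were higher and 8022 lower at 30 µM against control, in place of 5192 and 5515.

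FOXA3, the forkhead member best known for glucose homeostasis genes, measured 39.8, 39.4 and 44.3 CPM in controls, 40.3, 48.1 and 41.6 CPM at 20 µM, and 57.3, 52.9 and 56.3 CPM at 30 µM. The 20 µM libraries overlapped the controls, and the 30 µM libraries lay above both groups. Its change at 20 µM was 0.07 ± 0.0619 (adjusted p = 0.413), and it rose 1.35-fold at 30 µM against control (log2 0.43 ± 0.0611, adjusted p = 4.40e-07). It also rose between the doses (log2 0.36 ± 0.0610, adjusted p = 9.84e-06).

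**Figure D2:**
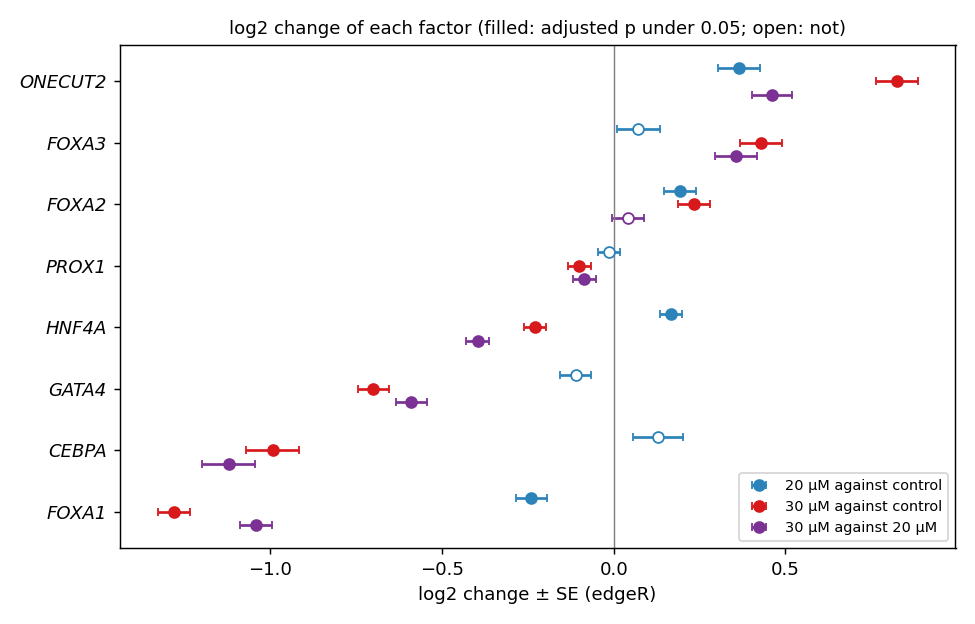
log2 change ± SE (x axis, edgeR) of each factor in the 3 comparisons, ordered by the change at 30 µM against control, filled where the adjusted p was under 0.05. FOXA1 (-1.28) and CEBPA (-0.99) are at the lower end for that comparison and ONECUT2 (0.83) at the upper end.

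The make-up of the FOXA group shifted. Counts per kilobase of merged exon, as a share of the 3 FOXA genes, gave FOXA1 34.2 ± 0.249% in controls, 28.5 ± 1.42% with 20 µM and 14.7 ± 0.517% with 30 µM (SD, n = 3). FOXA2 made up 39.4 ± 1.16%, 44.2 ± 0.462% and 48.2 ± 2.00%, and FOXA3 26.5 ± 1.35%, 27.3 ± 1.82% and 37.2 ± 1.66%. The sum of the 3 genes was 71.0 ± 2.20, 72.3 ± 2.66 and 68.1 ± 2.03 CPM per kilobase with TMM scaling, and a sum, unlike a share, moves with the scaling. The order within the group in controls depends on the length used: FOXA1 ranked above FOXA2 with coding length (place 4 against 6 of the 8) and with the longest transcript (4 against 5). A ratio taken inside a library does not depend on the scaling between libraries. The ratio of FOXA2 to FOXA1 per kilobase was 1.17, 1.17 and 1.12 in controls, 1.55, 1.63 and 1.495 at 20 µM, and 3.04, 3.31 and 3.51 at 30 µM. That is 2.86 times the control ratio at 30 µM, without overlap between any of the groups. In a two-sided exact permutation test on the log ratios each of these 3 comparisons gave p = 0.1, the smallest value that 3 against 3 libraries allow (0.125 after Benjamini-Hochberg adjustment over 30 tests of ratios).

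CEBPA was at 202, 220 and 226 CPM in controls, 218, 250 and 241 CPM at 20 µM, and 101, 106 and 119 CPM at 30 µM. The 20 µM libraries overlapped the controls and the 30 µM libraries were all well below both. The change at 20 µM was 0.13 ± 0.0736 (adjusted p = 0.233), and it passed the test without a low-count filter (0.13, adjusted p = 0.00872). CEBPA fell 1.99-fold at 30 µM against control (log2 -0.99 ± 0.0763, adjusted p = 3.04e-06) and 2.18-fold between the doses (log2 -1.12 ± 0.0763, adjusted p = 1.48e-06). In GENCODE 29 antisense transcripts overlap the single CEBPA exon, and the strand setting of the counting is not given in the sources used here.

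GATA4, the cardiac and endodermal GATA factor, measured 92.3, 86.1 and 84.9 CPM in controls, 80.4, 84.6 and 79.1 CPM at 20 µM, and 53.6, 53.2 and 55.4 CPM at 30 µM. The 20 µM libraries lay just below the lowest control. The difference did not pass the test (log2 -0.11 ± 0.0445, adjusted p = 0.0535), but did without control 3 (-0.14, adjusted p = 0.0377) or 20 µM library 2 (-0.14, adjusted p = 0.0232). At 30 µM GATA4 fell 1.62-fold against control (log2 -0.70 ± 0.0460, adjusted p = 4.69e-15) and 1.51-fold against 20 µM (log2 -0.59 ± 0.0462, adjusted p = 6.39e-13).

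ONECUT2 was the 1 factor of the 8 to rise at each step of dose. It measured 30.9, 31.8 and 31.1 CPM in controls, 43.2, 41.9 and 35.5 CPM at 20 µM, and 55.0, 56.5 and 54.6 CPM at 30 µM, with no overlap between groups. The rise was 1.29-fold at 20 µM (log2 0.36 ± 0.0609, adjusted p = 1.18e-05) and 1.77-fold at 30 µM (log2 0.83 ± 0.0599, adjusted p = 6.43e-14). Between the doses it was 1.38-fold (log2 0.46 ± 0.0588, adjusted p = 3.60e-08).

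PROX1 had the smallest change of the 8 in both comparisons with control. It measured 325, 319 and 311 CPM in controls, 324, 312 and 309 CPM at 20 µM, and 300.3, 296 and 295 CPM at 30 µM. The change at 20 µM was -0.01 ± 0.0324 (adjusted p = 0.789). At 30 µM it fell 1.07-fold against control (log2 -0.10 ± 0.0325, adjusted p = 0.00848) and by 0.09 ± 0.0325 log2 units against 20 µM (adjusted p = 0.0250). The first call was lost without the 3 libraries that deviate together (-0.08, adjusted p = 0.0675) and without a low-count filter (adjusted p = 0.0620). The second was lost in 6 of 19 alternatives (adjusted p = 0.0742 to 0.136), among them those without 20 µM library 1 (0.104), 30 µM library 2 (0.0742) or 30 µM library 3 (0.0772).

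Levels can be compared between genes only per length. As CPM per kilobase of merged GENCODE 29 exon, the control order was HNF4A (89.1 ± 0.884), CEBPA (82.2 ± 4.86), PROX1 (35.6 ± 0.782), FOXA2 (27.9 ± 0.944), FOXA1 (24.3 ± 0.830), GATA4 (19.8 ± 0.884), FOXA3 (18.8 ± 1.26) and ONECUT2 (1.93 ± 0.0310), SD with n = 3. Of these neighbours only GATA4 and FOXA3 overlapped. At 20 µM FOXA1 (20.6 ± 0.910) overlapped with FOXA3 (19.8 ± 1.89), and FOXA3 with GATA4 (18.3 ± 0.649). At 30 µM HNF4A (75.9 ± 1.91) stood further above CEBPA (41.2 ± 3.56), PROX1 (33.3 ± 0.335) and FOXA2 (32.8 ± 2.11) overlapped, and FOXA1 (9.98 ± 0.0846) was below FOXA3 (25.3 ± 1.04) and GATA4 (12.2 ± 0.265). HNF4A was in place 1 with every length tried, but ranks among the others depended on it. With coding length, CEBPA was in place 3 and PROX1 in place 2 at 30 µM, and FOXA1, not ONECUT2, was last.

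Set among the 12449 protein-coding genes tested, HNF4A stood at percentile 97.7 of level per kilobase in controls, 98.1 at 20 µM and 96.7 at 30 µM. CEBPA stood at 97.4, 97.8 and 92.6, and PROX1 at 92.1, 92.2 and 90.4. FOXA1 went from percentile 87.0 and 84.6 to 65.5, and GATA4 from 83.3 and 82.4 to 70.7. FOXA2 stood at 89.2, 91.2 and 90.2, FOXA3 at 82.4, 84.0 and 86.5, and ONECUT2, low throughout, at 25.8, 29.8 and 37.4.

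**Figure D3:**
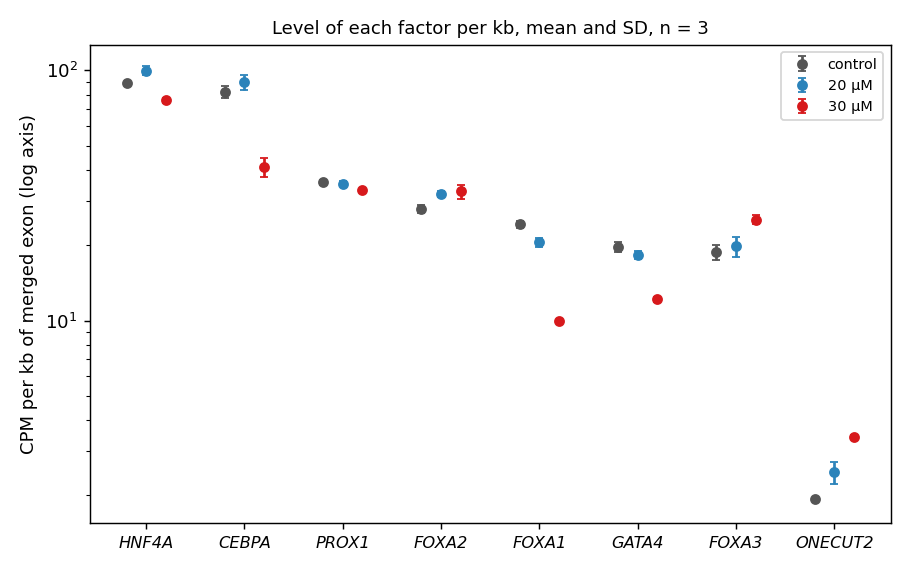
Mean CPM per kilobase of merged exon (log axis) with SD (n = 3) for each factor in controls, at 20 µM and at 30 µM, ordered by the control level. FOXA1 goes from 24.3 to 9.98 CPM per kilobase between control and 30 µM, below FOXA3 and GATA4.

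Several factors have close relatives in the genome. Of 13 relatives 9 were tested. At 20 µM 3 rose and 2 fell, with a median log2 change of 0.10 against 0.01 for all genes, and at 30 µM 4 rose and 4 fell, with a median of 0.17 against -0.04. The shares called were 55.6% and 88.9%, against 34.2% and 60.8% of all genes. CEBPB, the inflammation- and stress-inducible C/EBP factor, measured 69.8, 82.9 and 84.8 CPM in controls, 105, 112 and 106 CPM at 20 µM, and 222, 246 and 281 CPM at 30 µM. It rose at 20 µM (log2 0.44 ± 0.113, adjusted p = 0.0237), a call lost without 20 µM library 1 (0.0584), library 2 (0.0802) or library 3 (0.0623). It rose 3.16-fold at 30 µM (log2 1.66 ± 0.111, adjusted p = 1.12e-05). CEBPD, an acute-phase C/EBP factor, rose at both doses (log2 0.49 and 0.56), and CEBPG, which pairs with other bZIP proteins, rose at 30 µM (0.39, adjusted p = 6.42e-10).

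The ratio of CEBPB to CEBPA per kilobase was 0.465, 0.506 and 0.504 in controls, 0.645, 0.604 and 0.589 at 20 µM, and 2.96, 3.13 and 3.18 at 30 µM. CEBPA thus had more counts per kilobase than CEBPB in every control and 20 µM library and fewer in every 30 µM library. The ratio was 6.28 times the control value at 30 µM and 1.25 times at 20 µM (two-sided exact permutation p = 0.1 for each, the smallest possible, adjusted 0.125).

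ONECUT1, or HNF6, fell while ONECUT2 rose. It measured 7.10, 6.90 and 7.40 CPM in controls, 5.06, 5.72 and 5.67 CPM at 20 µM, and 3.84, 3.92 and 5.53 CPM at 30 µM. The fall was 0.38 log2 units at 20 µM (-0.38 ± 0.136, adjusted p = 0.0279) and 0.68 at 30 µM (-0.68 ± 0.140, adjusted p = 7.95e-05). The call at 20 µM was lost without control 1 (adjusted p = 0.0591), control 3 (0.0925) or 20 µM library 1 (0.107), and with DESeq2 (0.0545). HNF4G, the HNF4A relative, rose at 20 µM (0.22) and at 30 µM (0.42, adjusted p = 4.71e-07), the first lost without 20 µM library 1 (adjusted p = 0.0664). GATA6 had a change of 0.24 at 20 µM (adjusted p = 0.0764) and fell at 30 µM (-0.57, adjusted p = 4.24e-05). CEBPE, ONECUT3, PROX2 and GATA3 stayed at or below 2 counts per library, under the filter. Of the other GATA genes, GATA1, the erythroid factor, was at 1.39 CPM in controls and fell at 20 and 30 µM (-0.99 and -3.56). The call of GATA1 at 20 µM was lost with DESeq2 (adjusted p = 0.0655), without control 1 (0.117), control 3 (0.147) or 20 µM library 2 (0.129), and without the 3 libraries that deviate together (0.0889). GATA5, at 1.38 CPM in controls, fell at 30 µM (-1.93), and GATA2 had a change of 0.17 there (adjusted p = 0.163).

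**Figure D4:**
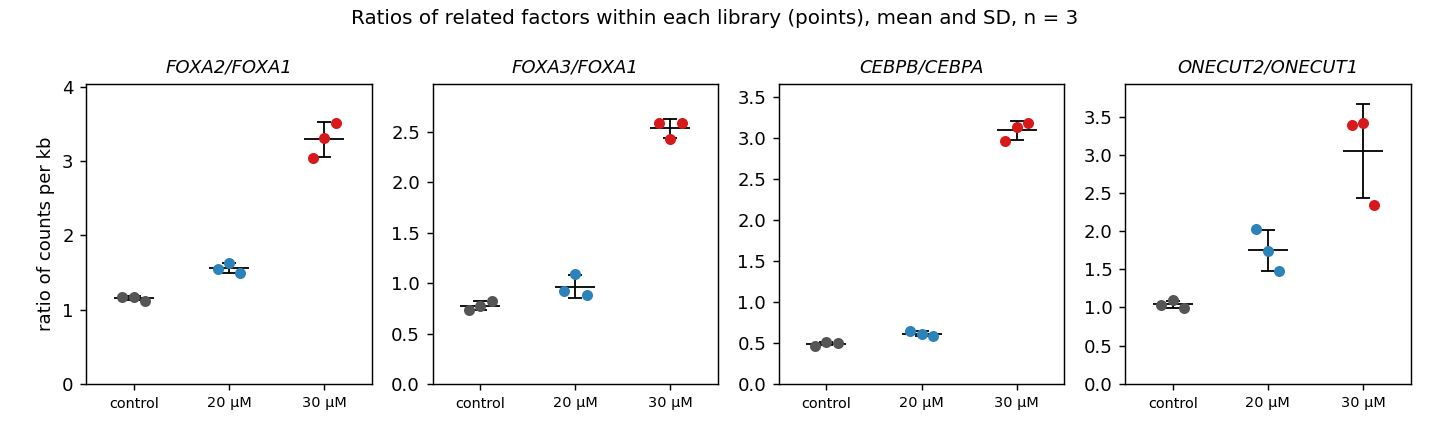
Ratio of counts per kilobase of merged exon for pairs of related factors, 1 point per library, with the mean and SD (n = 3). All 30 µM points lie above all control points in each of the 4 panels, most widely for CEBPB over CEBPA (2.96 to 3.18 against 0.465 to 0.506).

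Noncoding RNAs lie beside several of the factors, and 4 of 5 on the list were matched and tested. HNF4A-AS1, transcribed opposite HNF4A, measured 24.1, 22.04 and 23.6 CPM in controls, 31.4, 30.7 and 30.2 CPM at 20 µM, and 13.9, 14.0 and 14.2 CPM at 30 µM. It rose at 20 µM (log2 0.40 ± 0.0644, adjusted p = 5.97e-06) and fell at 30 µM (-0.73 ± 0.0697, adjusted p = 5.12e-11), the same directions as HNF4A. Without the strand setting of the counting, reads of HNF4A-AS1 and HNF4A where they overlap cannot be told apart, and the same holds for PROX1-AS1 and PROX1. Its ratio to HNF4A per kilobase was 0.286 ± 0.0152 in controls, 0.338 ± 0.0164 with 20 µM and 0.203 ± 0.00341 with 30 µM (SD, n = 3). CEBPA-DT, which starts next to CEBPA on the other strand, fell at 30 µM (-1.15 ± 0.163, adjusted p = 2.41e-07), and its ratio to CEBPA was 0.0358 ± 0.0101 in controls and 0.0315 ± 0.00390 at 30 µM (two-sided exact permutation p = 0.7, n = 3).

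LINC00261, which starts 2363 bases beyond the end of FOXA2 on the same strand, did not follow FOXA2. It measured 88.2, 84.1 and 86.1 CPM in controls, 82.96, 77.6 and 82.4 CPM at 20 µM, and 55.5, 56.6 and 55.4 CPM at 30 µM. It fell at 30 µM (-0.63 ± 0.0443, adjusted p = 2.99e-14), where FOXA2 rose. The ratio of LINC00261 to FOXA2 was 0.556 ± 0.00711 in controls, 0.457 ± 0.0272 with 20 µM and 0.307 ± 0.0201 with 30 µM (SD, n = 3), with each group's libraries clear of the others. PROX1-AS1 fell at 30 µM (-0.53, adjusted p = 0.0151), a call lost without control 3 (0.0658).

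The other liver-enriched factors, 23 genes that are not among the 8, were all tested. At 20 µM 9 rose and 4 fell (39.1% and 17.4%, against 17.2% and 16.9% of all genes, median log2 0.15). At 30 µM 5 rose and 15 fell (21.7% and 65.2%, against 29.5% and 31.3%, median -0.27). Among them NR1H4, the bile acid receptor FXR, fell from 137 ± 2.39 CPM in controls to 105 ± 3.18 with 20 µM and 42.0 ± 0.972 with 30 µM (SD, n = 3). NR0B2, the repressor SHP that FXR induces, rose from 44.2 ± 1.91 to 86.5 ± 5.58 and 209 ± 16.0 CPM. KLF15, a factor of fasting metabolism, fell at 30 µM (-1.27), and ZBTB20, a repressor of AFP, rose (1.25). HHEX, an early liver homeobox gene chosen after its values were seen, fell at 30 µM (-1.06, adjusted p = 1.48e-17).

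Of 21 coregulators 20 were tested. At 20 µM 6 rose and 2 fell (40% called, against 34.2% of all genes and 44.2% of protein-coding genes), and at 30 µM 10 rose and 6 fell (80% called, against 60.8% and 71.7%, median 0.12). TRIB1, a pseudokinase that brings C/EBP proteins to the ubiquitin ligase COP1, had the largest change of the list. Its mean went from 37.4 ± 0.423 in controls to 58.0 ± 0.903 and 470 ± 6.79 CPM with rising dose (SD, n = 3), a rise of 1.55-fold and then 12.5-fold against control (log2 3.65 ± 0.0386, adjusted p = 1.45e-36). Its relative TRIB2 rose at 20 µM (0.23, adjusted p = 0.00720, but 0.104 without the 3 libraries that deviate together) and fell at 30 µM (-0.89). The Groucho-type corepressor TLE1 (0.93) and the nuclear receptor coactivator NCOA1 (0.57) rose at 30 µM. The amounts of the proteins were not measured.

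Targets were taken from textbook lists, which were chosen with earlier results of these data known. Of 26 HNF4A targets 23 were tested. At 20 µM 16 of the 23 rose and 0 fell (69.6% against 17.2% of all genes, median log2 0.43). At 30 µM 10 rose and 8 fell (43.5% and 34.8%, against 29.5% and 31.3% of all genes, median -0.01). At 30 µM against 20 µM 5 rose and 12 fell (21.7% and 52.2%, against 28.0% and 28.9%, median -0.37). Whether these changes depend on HNF4A was not tested. TTR, the thyroid hormone carrier, rose at 20 and 30 µM (0.76 and 1.25), as did the apolipoproteins APOM (0.57 and 0.88) and APOA2 (0.44 and 0.80) and AMBP, the bikunin precursor (0.46 and 0.60). APOC3, named after its values were seen, rose at 20 µM (0.75, adjusted p = 4.44e-07) and fell at 30 µM (-0.23, adjusted p = 0.00841).

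Of 11 FOXA targets 10 were tested, with 5 higher and 3 lower at 20 µM and 4 higher and 3 lower at 30 µM (80% and 70% called, against 34.2% and 60.8% of all genes). IGFBP1, a secreted binder of insulin-like growth factors, rose from 9.33 ± 3.97 to 74.7 ± 2.67 and 1211 ± 18.0 CPM (SD, n = 3). TTR (0.76 and 1.25), APOB (0.11 and 0.48) and SERPINA1 (0.275 and 0.235) were also higher at 20 and 30 µM, and TF at 20 µM alone (0.35). CPS1 of the urea cycle fell at 20 and 30 µM (-0.18 and -0.64), as did AFP (-0.38 and -0.52) and ALB (-0.32 and -0.47). APOB, SERPINA1, TF and ALB were named after their values were seen. Of 13 CEBPA targets 9 were tested, with 3 higher and 3 lower at 20 µM, 2 higher and 3 lower at 30 µM (median -0.47), and 2 higher and 6 lower between the doses (median -0.39). At 30 µM 55.6% of these targets were called, against 60.8% of all genes, and 33.3% fell, against 31.3%. The shares called were 66.7% at 20 µM and 88.9% between the doses, against 34.2% and 57.0% of all genes. HP, or haptoglobin, fell from 74.5 ± 3.23 to 65.5 ± 1.82 and 30.3 ± 2.30 CPM (log2 -1.30 ± 0.0543 at 30 µM, adjusted p = 2.53e-20). The FOXA and CEBPA lists share genes, among them IGFBP1, TTR, CPS1 and ALB, and TTR is also on the HNF4A list. The comparisons with control share the control libraries, so their counts are not independent of each other.

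**Figure D5:**
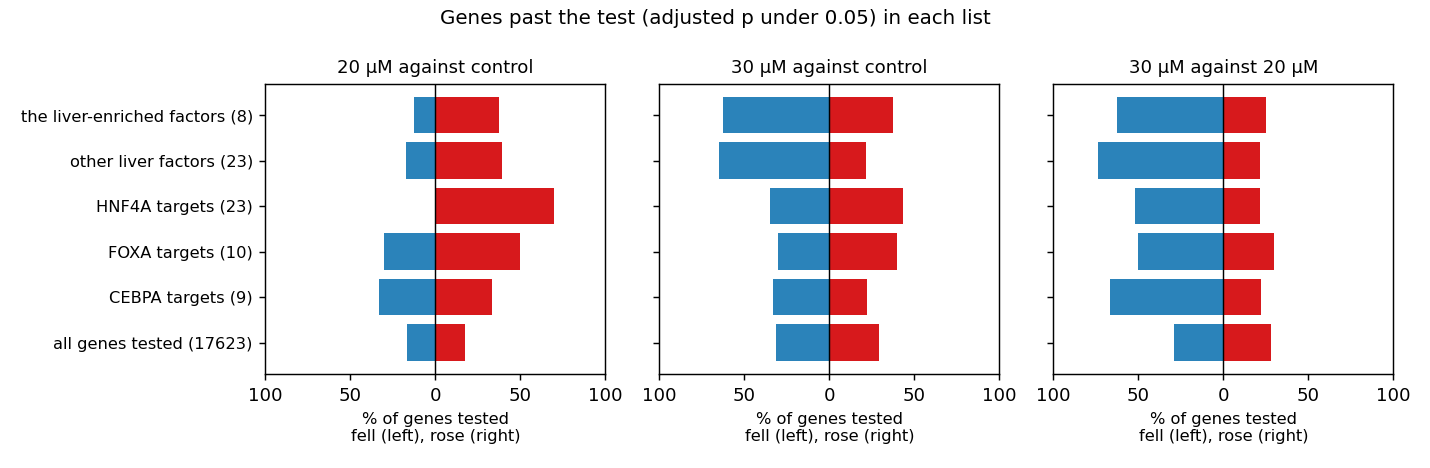
Share of tested genes that fell (left) or rose (right) at an adjusted p under 0.05 in each list and comparison, with the number tested in brackets. HNF4A targets have 69.6% higher and 0% lower at 20 µM against control, and 52.2% lower at 30 µM against 20 µM. The lists were chosen with earlier results of these data known.

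For each factor the genes with the most similar course over the 9 libraries were sought among 10130 other protein-coding genes of at least 5 CPM, by Pearson's r of log2 CPM. The 9 points share 3 groups, so r mostly reflects the group means and is a description. DAG1 (r = 0.996) and SLC7A5 (0.995) were nearest to HNF4A, CPB2 (0.999) and MPV17L (0.998) to FOXA1, and ZNF3 (0.997) was near to GATA4. ELMOD3 (0.997) and FGFR3 (0.995) were nearest to CEBPA, and TM4SF5 (0.992) and MFSD1 (0.990) to ONECUT2. FOXA2 with TPGS1 (0.967) and SSR4 (0.965), FOXA3 with LIMD1 (0.975) and PHF1 (0.972), and PROX1 with IFT74 (0.961) and WDR20 (0.957) had looser matches.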

How the data were processed

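The deposited files hold 1 count per gene, which the authors made with FastQC, STAR 2.7.10a and HTSeq on hg38, per the submitters' processing notes. Annotation release and strand setting: not given in the sources used here. The labels give polyA RNA, while their protocol describes ribosomal depletion of total RNA with a stranded kit. Of 62703 gene identifiers 62639 had a symbol and 58264 a GENCODE 29 entry, the source of positions and lengths. Where a symbol had several identifiers, the one with most counts was used. HTSeq's closing totals, 40.6% to 44.0% of records outside any single gene, were left out. All 9 libraries were fitted together with edgeR 4.0.16 (filterByExpr, TMM, robust quasi-likelihood) in R 4.3.3, with limma 3.58.1 and DESeq2 1.42.0 as alternatives. Only the edgeR fit was checked on simulated data. The genes tested held 99.9% of counts. Libraries of a group differed by more than sampling noise (chi-square per gene 2.10 to 8.02). Replicate numbers did not pair libraries (r of deviations -0.202 to 0.352). The SE is the log2 change over the square root of F.

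Named genes are the 8 factors, every tested relative, up to 4 genes per list called at 30 µM with at least 5 CPM and the largest changes, and the 2 most similar genes per factor, 1 of which is not reported here. The factors and lists were chosen with earlier results of these data known. Of 133 listed symbols 132 were matched, and GATA4-AS1 was not.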

Additional observations from a re-analysis of the deposited data

How the results depend on the processing

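The count of factors called was 4 at 20 µM against control (4 to 5 over 19 alternatives, 4 to 5 with 1 library left out), 8 at 30 µM against control (7 to 8, and 8 with any 1 library left out) and 7 between the doses (6 to 8, and 6 to 7). Of the 24 pairs of a factor and a comparison, 18 kept their direction and call under every alternative, or stayed short of the threshold, and the other 6 concern CEBPA, GATA4, FOXA2 and PROX1. With library size alone FOXA2 was at -0.15, NCOA1 at -0.0326 and AMBP at -0.0503 for 30 µM against 20 µM, in place of 0.04, 0.16 and 0.14. That scaling moved the median of all genes by -0.21 at 30 µM against control and by -0.19 between the doses. GATA4 passed the test at 20 µM with it (adjusted p = 0.0246) and with limma voom (0.0476). CEBPA passed at 20 µM without a low-count filter (0.13, adjusted p = 0.00872) and with a replicate block (0.13, adjusted p = 0.00992). Both made the count of factors called 5 there. In the other comparisons the replicate block left it at 8 and 7, and the fit without the filter gave 7 and 6. The causes were not tested. For PROX1 between the doses, median-ratio factors gave adjusted p = 0.0921 and DESeq2 0.0789. Of relatives, 5 were called at 20 µM, but 3 with DESeq2 or without control 1 or 20 µM library 2, and 2 without 20 µM library 1. Ranks of level per kilobase depend on the length used. Depth did not limit the factors, which had at least 706 counts in a library.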

Other observations

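Genes of the fetal liver and bile duct state, 13 of 16 tested, went in both directions. At 20 µM 3 rose and 4 fell (23.1% and 30.8%, against 17.2% and 16.9% of all genes, median log2 -0.05). At 30 µM 4 rose and 7 fell (30.8% and 53.8%, against 29.5% and 31.3%, median -0.17). SOX4, a developmental transcription factor, measured 7.95 ± 0.935 CPM in controls, 8.85 ± 0.906 with 20 µM and 26.4 ± 0.839 with 30 µM (SD, n = 3), and rose at 30 µM (log2 1.74 ± 0.0935, adjusted p = 2.43e-17). KRT19, a bile duct keratin, measured 20.7 ± 1.19, 20.1 ± 0.782 and 53.9 ± 2.35 CPM and rose at 30 µM (1.38 ± 0.0615, adjusted p = 1.37e-19). SOX9 and EPCAM of the same list, named after their values were seen, fell there (-0.21 and -0.10, edgeR, adjusted p = 4.55e-06 and 0.037). KRT7, another keratin of the list, had at most 3 counts in a library and was not tested. LIN28B, a fetal RNA-binding protein, fell from 178 ± 3.31 to 128 ± 6.71 and 116 ± 6.17 CPM, as did AFP from 1343 ± 30.5 to 1033 ± 32.4 and 938 ± 18.6 CPM (edgeR, adjusted p = 1.48e-14 and 4.47e-16 at 30 µM). H19, an imprinted noncoding RNA, was listed at 0 in all 9 libraries. Records ambiguous between genes (3.93% to 4.45% in a library) were not counted, and whether H19 RNA was absent was not tested.

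The PAR bZIP factor TEF, named after its values were seen, did not pass the test at 20 µM (log2 0.05, adjusted p = 0.638) and fell at 30 µM (-1.12, adjusted p = 3.48e-14, edgeR). DBP and HLF, PAR bZIP factors also named after their values were seen, differed at 30 µM against control. DBP fell (-1.37, adjusted p = 1.465e-08) and HLF rose (0.28, adjusted p = 1.93e-09, edgeR).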
